A study of Homo sapiens with 42 samples.

Results

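The 10 genes described here are outputs and brakes of the mitogen-activated protein kinase (MAPK) cascade, in which RAS, RAF, MEK and ERK pass a growth signal to the nucleus. They were taken as a named set, DUSP4, DUSP5, DUSP6, SPRY2, SPRY4, SPRED1, SPRED2, ETV1, ETV4 and ETV5, from 19775 genes measured, and all 10 were found. Each gene was read from its probe set, a group of short probes against its transcript, that carried a single gene symbol and had the highest mean log2 signal over all 42 arrays. No difference between groups entered that choice of probe set, although the 10 genes themselves were chosen with earlier results of these data known. Levels are log2 of the deposited signal, shifted on each array so that the median gene was the same on all arrays. Changes are differences between such levels, tested cells minus their control, ± the standard error of the fit. A gene was called changed at a Benjamini-Hochberg adjusted p below 0.05 over all 19775 genes together with a change of at least 1.5-fold, and "rose" and "fell" are used of called changes.

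In BRAF-mutant melanoma the cascade is switched on downstream of RAS, and active ERK drives transcription of its own brakes. DUSP4, DUSP5 and DUSP6 encode phosphatases that remove the activating phosphates from ERK, in the nucleus for DUSP4 and DUSP5 and in the cytoplasm for DUSP6. Sprouty proteins (SPRY2, SPRY4) and their SPRED relatives (SPRED1, SPRED2) restrain the cascade near RAS and RAF, SPRED1 by bringing the RAS inactivator neurofibromin to the membrane. ETV1, ETV4 and ETV5 are the PEA3 group of ETS transcription factors, and their transcripts are commonly used, together with those of DUSP6 and SPRY4, to read ERK activity.

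A375 is an established human melanoma line with an activating BRAF mutation and functional p53. Expression of p53, CDT1 or BRCA1 was knocked down by siRNA over 48 hours, GL2 siRNA against luciferase being the control, and a drug or vehicle then followed for 26 hours. The drugs were 650 nM MLN4924, which blocks the NEDD8-activating enzyme and so the cullin-RING ubiquitin ligases, 5 uM Nutlin, which frees p53 from MDM2, and 100 nM daunorubicin, a topoisomerase II poison. The vehicle was 0.065% DMSO, and each culture held 27000 cells. There were 14 groups of 3 arrays. The p53 and GL2 siRNAs were each combined with MLN4924, Nutlin, daunorubicin and 2 sets of DMSO, and the CDT1 and BRCA1 siRNAs with MLN4924 and DMSO. The labels tie neither DMSO set to a treatment, so both sets together served as control for the p53 and GL2 siRNAs. All groups share the transfection and the BRAF-mutant background, and no group of cells without an siRNA was among them. Nothing in the labels shows that the 3 replicates of a group came from separate cultures, and the p-values therefore reflect the spread among these samples alone, which may be technical.

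The siRNA targets were examined first. CDT1 had log2 signals of 6.67, 6.51 and 6.77 under CDT1 siRNA with DMSO, and BRCA1 had 5.98, 5.83 and 5.82 under BRCA1 siRNA with DMSO, against 8.56 to 9.16 and 8.52 to 8.95 in the 6 GL2 DMSO arrays. CDKN1A, the p53 target that encodes p21, spanned 6.48 to 7.57 under p53 siRNA and 9.01 to 9.25 under GL2 siRNA, both with DMSO. Its group means in p53 siRNA cells were 7.58 with MLN4924, 9.13 with Nutlin and 9.99 with daunorubicin. In GL2 siRNA cells they were 11.70, 12.40 and 11.90. CDT1 and BRCA1 siRNA with DMSO gave CDKN1A means of 10.55 and 10.99. With MLN4924, BRCA1 itself did not follow the siRNA on every array. It was at 4.70 in the library labelled GL2 siRNA replicate 3, beside 7.95 and 8.24 in that group, and at 8.18 in the library labelled BRCA1 siRNA replicate 3, beside 4.93 and 5.28. CDT1 stood likewise at 7.27 in the library labelled GL2 (8.86 and 8.81 in the others) and at 8.61 in that labelled BRCA1 (7.27 and 7.31 in the others). Each of the 2 libraries thus had BRCA1 and CDT1 levels like those of the other group, and whether they were exchanged was not tested. The MLN4924 values of the GL2 and BRCA1 siRNAs carry that doubt. The actin (ACTB) 5' to 3' signal ratio was 0.0118 in the daunorubicin library labelled p53 siRNA replicate 1, and 0.649 to 0.945 on the other 41 arrays. These 3 libraries stayed in their labelled groups, and values without them are given wherever they change a call. The melanocyte regulators SOX10 (7.05 to 10.99 over the 42 arrays) and MITF (7.31 to 9.28) were present, whereas the pigment genes PMEL (1.49 to 5.26) and MLANA (1.50 to 5.07) were low. Centring matters for direction counts: without it, all genes together had a median change with MLN4924 of -0.10 in GL2 and -0.22 in p53 siRNA cells, against 0.08 and 0.20 with it, and the medians for Nutlin and daunorubicin in GL2 siRNA cells were 0.19 and 0.22, against 0.02 and 0.00.

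All 10 genes were well expressed, between the 70.9th percentile of genes for ETV1 and the 96.2nd for DUSP6 by mean signal. Their group means moved by very different amounts over the 14 groups. SPRY2 had the widest span, 2.57 log2 units between BRCA1 siRNA with DMSO (11.38) and GL2 siRNA with MLN4924 (8.81), which was 12.0 times its within-group SD of 0.21. ETV1 spanned 2.22 units with a within-group SD of 0.23, and DUSP5 1.78 units with an SD of 0.11, the largest span relative to its spread (16.5 times). SPRED1 and SPRED2 moved least, by 0.76 and 0.83 units with SDs of 0.17 and 0.25. ETV4 had a span of 2.19 units, but its within-group SD of 0.72 was set by the daunorubicin library labelled p53 siRNA replicate 1, at 4.35 where every other array lay between 8.29 and 9.56.

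In the order of group means, the 4 MLN4924 groups held the 4 highest places for DUSP5 and the 4 lowest for SPRY2, ETV1 and ETV5. For DUSP5 the highest pair, CDT1 and p53 siRNA with MLN4924 (10.08 and 10.06), overlapped each other, as did the next pair, GL2 and BRCA1 siRNA with MLN4924 (9.79 and 9.77), and the arrays of the pairs lay apart. For SPRY2 the lowest pair, GL2 and BRCA1 siRNA with MLN4924 (8.81 and 8.89), overlapped only through the libraries labelled replicate 3 (9.03 and 8.52). Their other arrays lay apart, at 8.78 and 8.62 with GL2 and 9.02 and 9.12 with BRCA1 siRNA. The arrays of p53 and CDT1 siRNA with MLN4924 (9.55 and 9.45) overlapped too, while BRCA1 siRNA with DMSO (11.38) lay above all others. The order of DUSP6 ran from 10.34 in p53 siRNA with MLN4924 to 11.41 in the second GL2 DMSO set, and each of its groups overlapped its neighbour. For DUSP4 the order was led by GL2 siRNA with daunorubicin (10.53), BRCA1 siRNA with DMSO (10.32) and GL2 siRNA with Nutlin (10.22), which stood above the other 11 groups at 9.43 to 9.95.

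**Figure D1:**
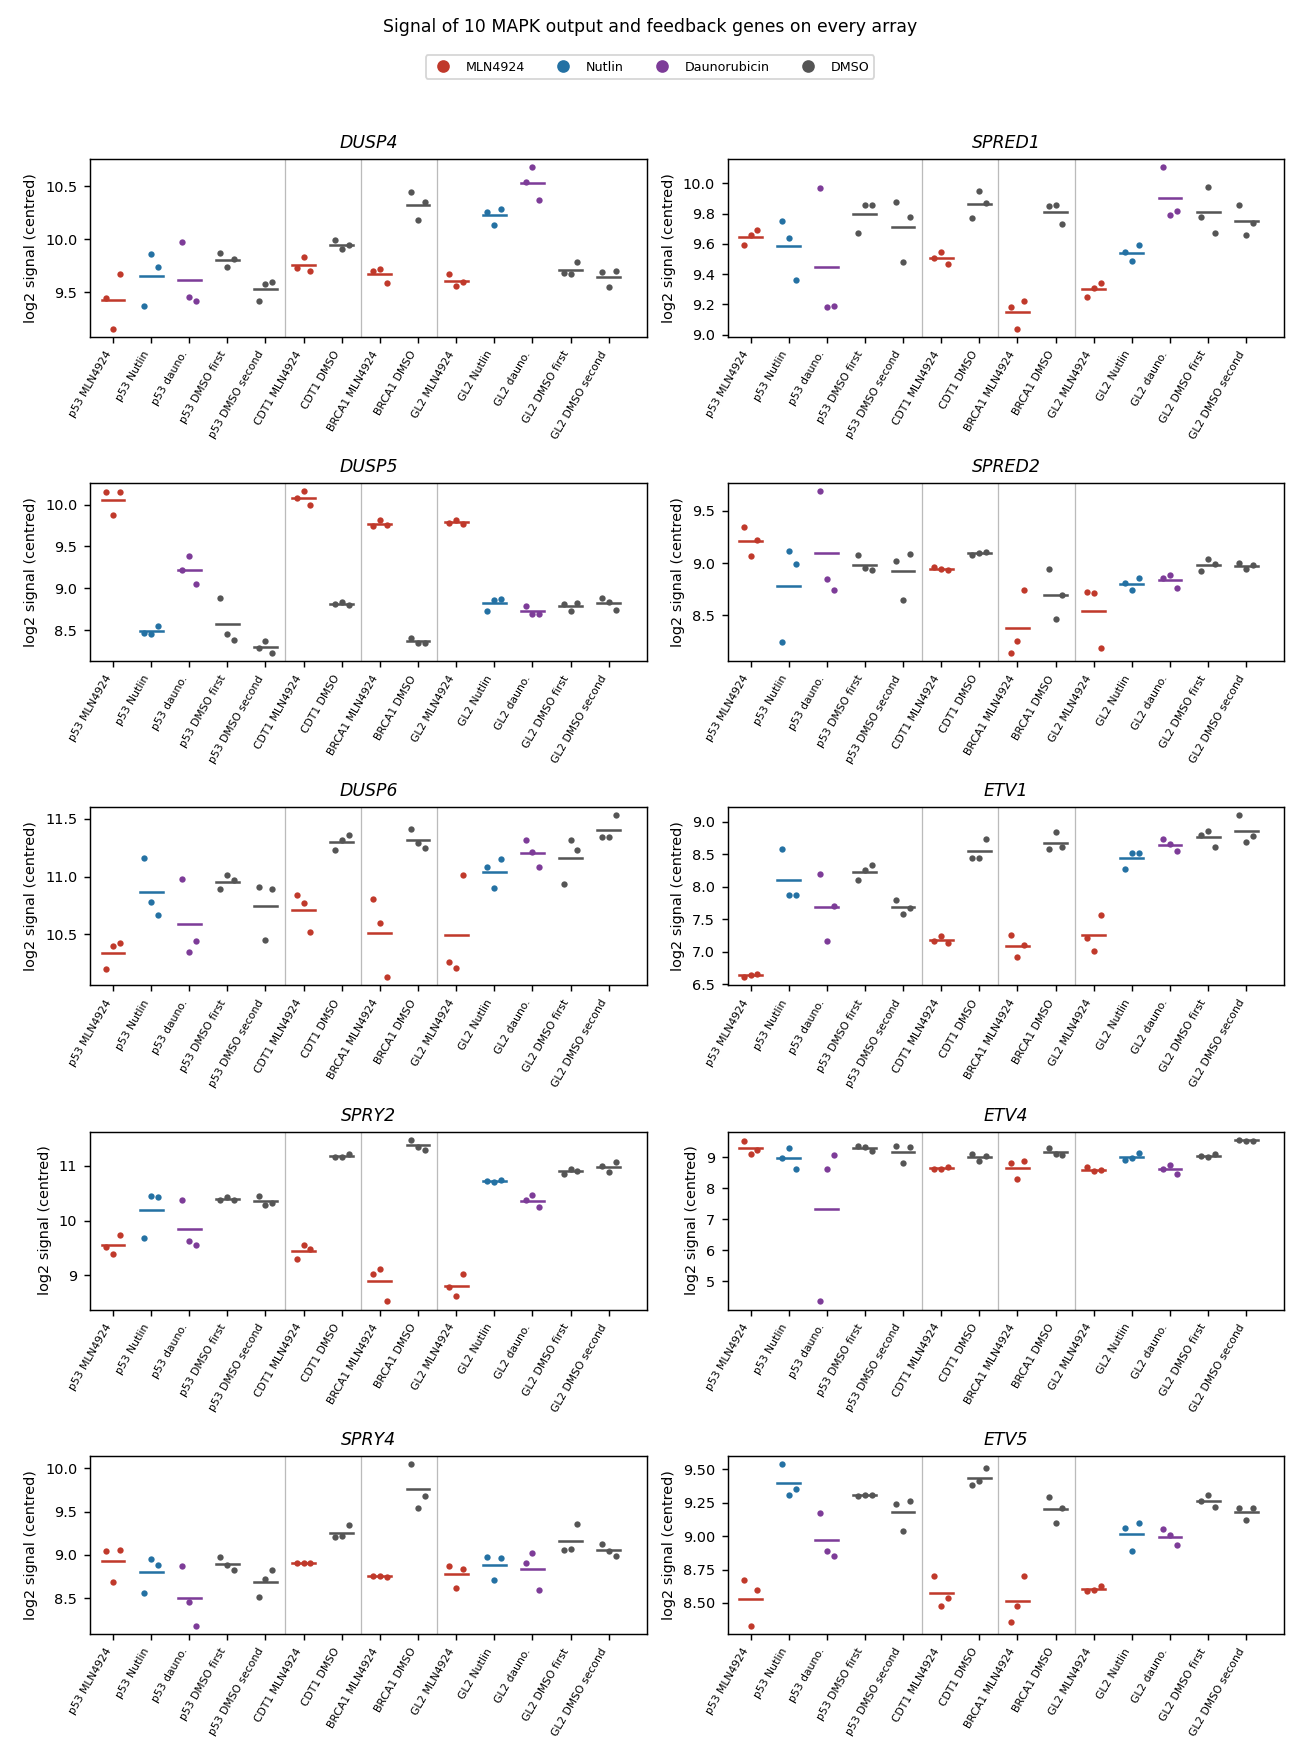
Log2 signal of each gene on every array (points, 3 per group) with the group mean (line), every array shifted to the same median gene. Colours mark the drug and grey lines separate the siRNAs, each panel having its own vertical axis. The group means with MLN4924 (red) are the lowest for SPRY2, ETV1 and ETV5 and highest for DUSP5, and the single point at 4.35 for ETV4 is the daunorubicin library labelled p53 siRNA replicate 1.

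MLN4924 split the set. With this drug SPRY2, ETV1 and ETV5 fell and DUSP5 rose under all 4 siRNAs, DUSP6 fell under the CDT1, BRCA1 and GL2 siRNAs, and DUSP4, SPRY4 and SPRED1 fell under BRCA1 siRNA alone among the 4. SPRED2 and ETV4 were called under none of them. Counted by siRNA, 1 gene rose and 3 fell in p53 siRNA cells, where 17.8% and 7.6% of all genes did so, and 1 rose and 4 fell in CDT1 siRNA cells, where 5.93% and 4.63% did. In BRCA1 siRNA cells 1 rose and 7 fell, against 9.79% and 7.15% of all genes, and in GL2 siRNA cells 1 rose and 4 fell, against 10.2% and 7.06%. Of all genes, 2.18% were called lower under all 4 siRNAs, as SPRY2, ETV1 and ETV5 were, and 2.44% were called higher under all 4, as DUSP5 was. The median change of the 10 genes was -0.18 in p53, -0.36 in CDT1, -0.68 in BRCA1 and -0.55 in GL2 siRNA cells, where the medians of all genes were 0.20, 0.10, 0.16 and 0.08. At the deposited scaling without centring, genes called higher and lower made up 5.33% and 17.4% in p53, 4.08% and 6.19% in CDT1, 5.06% and 10% in BRCA1, and 5.69% and 10.9% in GL2 siRNA cells, so the share of falls among all genes was larger than with centring. In cultures such as these, fewer cells of a kind and less RNA per cell cannot be told apart.

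**Figure D2:**
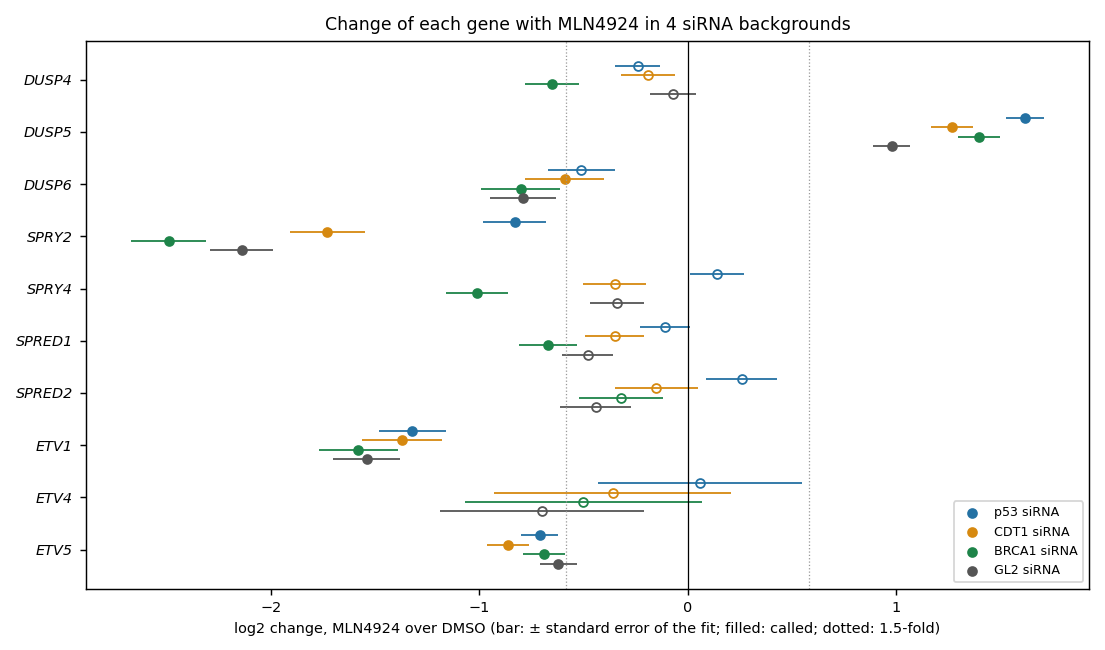
Change of each gene with MLN4924 against DMSO under p53, CDT1, BRCA1 and GL2 siRNA, on the log2 scale, with bars for the standard error of the fit; filled points were called and dotted lines mark 1.5-fold. DUSP5 lies to the right of zero under every siRNA, between 0.98 and 1.62, and SPRY2 to the left, between -2.49 and -0.83.

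Promoter windows from RefSeq (GRCh38.p14, 250 bases before to 50 after the annotated start) were examined for the genes that fell with MLN4924, because they moved together. A window was held for 6 of the 10 genes. CGGAAG, an ETS core with flanking bases, was searched on both strands. Its reverse complement CTTCCG occurs in the DUSP6 window, with its first base at -62 from the start, and is set in capitals there. Shorter forms of the core were not searched, so their presence or absence is not described. No match to CGGAAG, to the AP-1 motif TGANTCA or to the CRE core TGACGT was in the SPRY2 and ETV1 windows. Among 35116 promoters of the same length, CGGAAG was present in 19.5%, TGANTCA in 7.71% and TGACGT in 7.98%. Windows at the gene start are shown for DUSP6, SPRY2 and ETV1. The DUSP6 window lies at chr12:89352452-89352751, the SPRY2 window at chr13:80341077-80341376 and the ETV1 window at chr7:13991376-13991675, all on the minus strand and given here 5′ to 3′ along the gene. Their GC content is 58.3%, 71% and 57.3%.
DUSP6: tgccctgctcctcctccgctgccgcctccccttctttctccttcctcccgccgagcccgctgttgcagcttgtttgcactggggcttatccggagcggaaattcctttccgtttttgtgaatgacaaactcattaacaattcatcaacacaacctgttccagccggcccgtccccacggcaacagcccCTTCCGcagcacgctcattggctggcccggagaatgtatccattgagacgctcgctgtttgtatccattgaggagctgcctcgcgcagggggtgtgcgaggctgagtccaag
SPRY2: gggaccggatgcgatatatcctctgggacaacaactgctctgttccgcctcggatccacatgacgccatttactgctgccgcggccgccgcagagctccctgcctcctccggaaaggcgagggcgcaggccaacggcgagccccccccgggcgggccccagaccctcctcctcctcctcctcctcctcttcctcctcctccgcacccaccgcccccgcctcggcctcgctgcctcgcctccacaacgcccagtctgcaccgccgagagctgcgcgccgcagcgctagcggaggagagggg
ETV1: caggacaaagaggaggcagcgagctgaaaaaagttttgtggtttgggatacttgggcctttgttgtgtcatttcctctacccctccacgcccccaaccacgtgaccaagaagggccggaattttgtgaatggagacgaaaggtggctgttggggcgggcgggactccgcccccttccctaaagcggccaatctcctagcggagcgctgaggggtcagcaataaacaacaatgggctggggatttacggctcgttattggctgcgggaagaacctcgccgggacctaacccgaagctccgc
These matches describe letters only, and binding was not measured.

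SPRY2, the Sprouty protein best known as a feedback inhibitor of receptor signalling, showed the largest fall of the set. It had 8.78, 8.62 and 9.03 in GL2 siRNA cells with MLN4924, against a lowest, median and highest of 10.85, 10.93 and 11.08 over the 6 GL2 DMSO arrays. The groups lay more than 1 log2 unit apart, and the change was -2.14 ± 0.15, or 4.40-fold lower (adjusted p = 3.1e-12). With BRCA1 siRNA the arrays gave 9.02, 9.12 and 8.52 with MLN4924 and 11.48, 11.35 and 11.30 with DMSO, a change of -2.49 ± 0.18, or 5.63-fold lower (adjusted p = 3.5e-12). These groups too were far apart. CDT1 siRNA cells had 9.29, 9.56 and 9.48 with MLN4924 and 11.16, 11.17 and 11.21 with DMSO, 3.33-fold lower (adjusted p = 1.5e-08). Under p53 siRNA SPRY2 had 9.52, 9.38 and 9.74 with MLN4924, against 10.28, 10.38 and 10.45 as the lowest, median and highest of 6 DMSO arrays. The groups did not overlap there either, but the change of -0.83 ± 0.15 was the smallest of the 4 (1.78-fold lower, adjusted p = 5.2e-05), and it was -1.25 at the deposited scaling. Without the 3 doubted libraries the change was -2.31 in BRCA1 and -2.25 in GL2 siRNA cells.

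SPRY4, its relative and a common readout of ERK output, behaved differently. It had 8.75, 8.76 and 8.74 in BRCA1 siRNA cells with MLN4924, against 10.05, 9.54 and 9.68 with DMSO, a change of -1.01 ± 0.15 (2.01-fold lower, adjusted p = 4.7e-06). The MLN4924 arrays were almost equal and all below the DMSO arrays, which were the highest SPRY4 values of the study. Elsewhere SPRY4 was not called with MLN4924: its change was 0.14 ± 0.13 in p53, -0.35 ± 0.15 in CDT1 and -0.34 ± 0.13 in GL2 siRNA cells.

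SPRED1, which carries neurofibromin to RAS, had 9.18, 9.04 and 9.22 in BRCA1 siRNA cells with MLN4924 and 9.85, 9.86 and 9.73 with DMSO. The groups did not overlap, and the change was -0.67 ± 0.14 (1.59-fold lower, adjusted p = 6.0e-04). In GL2 siRNA cells it had 9.25, 9.31 and 9.34 with MLN4924, all below the 9.66 to 9.98 of the 6 DMSO arrays, with an adjusted p of 0.00303 but a change of -0.48 ± 0.12 that stayed under 1.5-fold. It was -0.67 and called at the deposited scaling. The change was -0.11 in p53 and -0.35 in CDT1 siRNA cells, not called. SPRED2 was not called in any of the 4, with changes of 0.26 in p53, -0.15 in CDT1, -0.32 in BRCA1 and -0.44 in GL2 siRNA cells, each with a standard error of 0.17 to 0.20. At the deposited scaling it was called in GL2 siRNA cells (-0.62), and the value in p53 siRNA cells was -0.16. Without the 3 doubted libraries its change was -0.50 in BRCA1 and -0.26 in GL2 siRNA cells, neither called.

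DUSP6, the cytoplasmic ERK phosphatase and the brightest of the 10, had 10.26, 10.21 and 11.01 in GL2 siRNA cells with MLN4924, against 10.94, 11.33 and 11.53 as the lowest, median and highest of the 6 DMSO arrays. The library labelled replicate 3, which went against its label, overlapped the DMSO arrays, and the other 2 lay below all of them. The change was -0.79 ± 0.16 (1.73-fold lower, adjusted p = 2.6e-04), and -1.05 without the 3 doubted libraries. In BRCA1 siRNA cells DUSP6 had 10.81, 10.60 and 10.13 with MLN4924 and 11.41, 11.29 and 11.25 with DMSO, without overlap (-0.80 ± 0.19, adjusted p = 0.00136, and -0.61 without the 3 doubted libraries). In a fit of only these groups its adjusted p was 0.0536. In CDT1 siRNA cells the arrays gave 10.84, 10.77 and 10.52 with MLN4924 and 11.23, 11.32 and 11.36 with DMSO. They did not overlap, yet the change of -0.59 ± 0.19 (adjusted p = 0.0253) was at the edge of the call and was lost without MLN4924 replicate 2 (-0.62, adjusted p = 0.0503), MLN4924 replicate 3 (-0.50), DMSO replicate 2 (-0.59) or DMSO replicate 3 (-0.56). Under p53 siRNA it had 10.20, 10.40 and 10.43 with MLN4924 and 10.45, 10.90 and 11.01 as the lowest, median and highest with DMSO. These values did not overlap, and the change of -0.51 ± 0.16 (adjusted p = 0.0111) was under 1.5-fold. It was called in 6 of 13 settings, among them the deposited scaling (-0.93), quantile normalization (-1.01), the first DMSO set alone (-0.61) and the mean of its probe sets (-0.63), and also without second-set DMSO replicate 2 (-0.59).

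DUSP5, a nuclear ERK phosphatase, went the other way. It had 9.78, 9.82 and 9.77 in GL2 siRNA cells with MLN4924, against 8.73, 8.82 and 8.89 as the lowest, median and highest of 6 DMSO arrays, a change of 0.98 ± 0.09 (1.97-fold higher, adjusted p = 2.3e-10). Under p53 siRNA the 3 values were 10.15, 9.87 and 10.15 with MLN4924, against 8.23, 8.38 and 8.88 as the lowest, median and highest with DMSO, a change of 1.62 ± 0.09 (3.08-fold higher, adjusted p = 3.4e-15). In both siRNAs every MLN4924 array stood above every DMSO array. CDT1 siRNA cells had 10.08, 10.16 and 10.00 with MLN4924 and 8.81, 8.84 and 8.80 with DMSO, 2.41-fold higher (adjusted p = 7.3e-11). BRCA1 siRNA cells had 9.74, 9.82 and 9.76 with MLN4924 and 8.41, 8.35 and 8.35 with DMSO, 2.64-fold higher (adjusted p = 3.5e-12). No array of the drug overlapped one of the vehicle in either, and the rise was called under each of 13 settings in p53 (1.13 to 1.76) and GL2 siRNA cells (0.76 at the lowest).

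DUSP4, the other nuclear phosphatase of the set, had 9.70, 9.72 and 9.59 in BRCA1 siRNA cells with MLN4924 and 10.44, 10.18 and 10.35 with DMSO. The groups lay apart, and DUSP4 fell by 0.65 on the log2 scale (1.57-fold lower, adjusted p = 2.6e-04). Its MLN4924 arrays in GL2 siRNA cells, at 9.67, 9.56 and 9.60, lay within the DMSO range of 9.55 to 9.79 (change -0.07 ± 0.11). The change was -0.24 ± 0.11 in p53 and -0.19 ± 0.13 in CDT1 siRNA cells, neither called, although that in p53 siRNA cells was called at the deposited scaling (-0.66).

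ETV1, an ETS factor that is amplified in some melanomas, fell with MLN4924 under every siRNA. It had 7.21, 7.02 and 7.57 in GL2 siRNA cells with MLN4924, against 8.62, 8.79 and 9.10 as the lowest, median and highest with DMSO (-1.54 ± 0.16, 2.91-fold lower, adjusted p = 6.8e-09). Under p53 siRNA it had 6.61, 6.65 and 6.66 with MLN4924, against 7.59, 7.96 and 8.33 (-1.32 ± 0.16, 2.49-fold lower, adjusted p = 8.0e-08). No MLN4924 array reached a DMSO array in either siRNA. CDT1 siRNA cells had 7.16, 7.24 and 7.14 with MLN4924 and 8.45, 8.45 and 8.74 with DMSO (2.58-fold lower, adjusted p = 2.3e-06). BRCA1 siRNA cells had 7.26, 6.92 and 7.11 with MLN4924 and 8.58, 8.84 and 8.61 with DMSO (-1.58 ± 0.19, adjusted p = 8.9e-08). These groups did not overlap either. In the mean of all ETV1 probe sets the falls were smaller, at -0.66 in p53, -0.87 in CDT1, -1.02 in BRCA1 and -0.89 in GL2 siRNA cells, and were still called.

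ETV5, another PEA3 factor, showed a smaller fall with close replicates. Its values were 8.59, 8.60 and 8.63 in GL2 siRNA cells with MLN4924 and 9.12, 9.21 and 9.31 as the lowest, median and highest with DMSO (-0.62 ± 0.09, 1.53-fold lower, adjusted p = 1.8e-06). In p53 siRNA cells they were 8.67, 8.33 and 8.60 with MLN4924, against 9.04, 9.28 and 9.31 (-0.71 ± 0.09, 1.64-fold lower, adjusted p = 1.0e-07). The arrays lay apart in both, though the GL2 change was short of 1.5-fold against the second DMSO set alone (-0.58) and was -0.27 in the mean of all ETV5 probe sets. CDT1 siRNA cells had 8.70, 8.48 and 8.54 with MLN4924 and 9.38, 9.41 and 9.51 with DMSO (1.82-fold lower, adjusted p = 2.0e-07). BRCA1 siRNA cells had 8.36, 8.48 and 8.70 with MLN4924 and 9.29, 9.10 and 9.21 with DMSO (1.61-fold lower, adjusted p = 4.7e-06). Both were again without overlap.

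ETV4, the remaining PEA3 factor, was not called with MLN4924. In GL2 siRNA cells it had 8.67, 8.54 and 8.57 with MLN4924, below all 6 DMSO arrays (median 9.31, highest 9.56), but the change of -0.70 ± 0.49 (adjusted p = 0.331) was not called in the fit that holds the array at 4.35. Without the 3 doubted libraries the same difference, -0.69 ± 0.15, was called (adjusted p = 7.9e-04), and so was that in BRCA1 siRNA cells (-0.60, adjusted p = 0.0083). Under p53 siRNA ETV4 had 9.51, 9.11 and 9.24 with MLN4924, within and above the DMSO range of 8.81 to 9.37 (change 0.06).

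Whether the response to MLN4924 differed between p53 and GL2 siRNA cells was tested as a difference of changes. The change of 2 of the 10 genes was more positive in p53 siRNA cells, where 6.96% of all genes were called that way, and that of none was more negative (3.41% of all genes). At the deposited scaling these shares of all genes were 3.3% and 7.19%. For SPRY2 the fall was smaller in p53 siRNA cells, with a difference of 1.31 ± 0.22 (adjusted p = 1.1e-04), and 1.42 without the 3 doubted libraries. The DMSO arrays themselves stood at 10.28 to 10.45 in p53 and 10.85 to 11.08 in GL2 siRNA cells. For DUSP5 the rise was larger in p53 siRNA cells, with a difference of 0.64 ± 0.12 (adjusted p = 4.9e-04). That difference lost its call in 4 of 13 settings, at the deposited scaling (0.41), with quantile normalization (0.37), against the first DMSO sets alone (0.49) and with a pseudocount of 16 (0.58), and was 0.63 without the doubted libraries. ETV1 and ETV5 differed by 0.23 ± 0.23 and -0.09 ± 0.12 and were not called. SPRY4 (0.48 ± 0.18) was called only without p53 siRNA MLN4924 replicate 2 (0.60, adjusted p = 0.0405). SPRED2 (0.70 ± 0.25) had an adjusted p of 0.06. It was called in 3 of 13 settings (0.45 to 0.72 over all 13), among them a fit of only the groups compared (adjusted p = 0.0154). ETV4 (0.76 ± 0.70) was called only once the doubted libraries were left out (0.75, adjusted p = 0.0112) and in a fit of only the groups compared. The 10 genes had a median difference of 0.42, where the median of all genes was 0.13.

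No member was called in the same test between CDT1 and GL2 siRNA cells or between BRCA1 and GL2 siRNA cells, in which 1.22% and 1.86% of all genes were called. At an unadjusted p below 0.05, 1 gene passed for CDT1 and 3 passed for BRCA1 siRNA, where 12.7% and 13.2% of all genes did. The largest differences for BRCA1 siRNA were -0.67 ± 0.20 for SPRY4 (adjusted p = 0.0747) and -0.58 ± 0.17 for DUSP4 (adjusted p = 0.075). SPRY4 passed the threshold at the deposited scaling (-0.67, adjusted p = 0.012). The BRCA1 test compares the 2 groups whose MLN4924 libraries labelled replicate 3 are in doubt. Without the 3 doubted libraries no member was called in it, where 1.14% of all genes were called more positive and 2.02% more negative. SPRY4 was then at -0.64 (adjusted p = 0.0756), DUSP4 at -0.55 (adjusted p = 0.0614), DUSP6 at 0.44 and SPRY2 at -0.06.

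Nutlin and daunorubicin, which both act on the p53 response, moved few of the 10 genes. With Nutlin no member was called in p53 siRNA cells or in GL2 siRNA cells, where 1.15% and 18.7% of all genes were called, and 0 and 3 members passed at an unadjusted p below 0.05 (18.9% and 38.2% of all genes). Of all genes, 7.91% rose with Nutlin in GL2 siRNA cells and 10.8% fell, shares that became 12.9% and 7.56% without centring. DUSP4 came closest: it had 10.26, 10.13 and 10.28 in GL2 siRNA cells with Nutlin, against 9.55 to 9.79 over the 6 DMSO arrays. All 3 arrays stood above the DMSO arrays, and the change of 0.54 ± 0.11 (adjusted p = 3.2e-04) was just under 1.5-fold. It was called at the deposited scaling (0.71) and without Nutlin replicate 2 (0.59). In p53 siRNA cells DUSP4 had 9.37, 9.86 and 9.74 with Nutlin, within the DMSO range of 9.42 to 9.87 apart from the lowest. The difference of its changes was -0.55 ± 0.16 (adjusted p = 0.0142), also under 1.5-fold, and no member was called in that test, where 13.1% of all genes were and 3 members passed at an unadjusted p below 0.05 (25.9% of all genes). ETV5 showed a difference of 0.37 ± 0.12 (adjusted p = 0.0406) on the same terms. Leaving out Nutlin replicate 2 of GL2 siRNA cells, or replicate 2 or 3 of p53 siRNA cells, took the DUSP4 difference past 1.5-fold (-0.60, -0.66 and -0.60).

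With daunorubicin DUSP4 rose in GL2 siRNA cells. It had 10.54, 10.68 and 10.37 with daunorubicin, above all DMSO arrays (9.55 to 9.79), a change of 0.85 ± 0.11 (1.80-fold higher, adjusted p = 3.9e-07). It was the 1 member called higher, where 7.73% of all genes were, and none was called lower (11.4%). At the deposited scaling 14.2% of all genes were called higher and 7.13% lower. ETV4 had 8.63, 8.76 and 8.47 with daunorubicin, below all 6 DMSO arrays (median 9.31, highest 9.56). Its change of -0.67 ± 0.49 (adjusted p = 0.347) was not called, but without the 3 doubted libraries the same change, -0.67 ± 0.13, was called lower (adjusted p = 1.6e-04). SPRY2 had 10.38, 10.47 and 10.24, below its DMSO range of 10.85 to 11.08, with a change of -0.58 ± 0.15 (adjusted p = 0.00368) at the edge of 1.5-fold. That edge was passed without daunorubicin replicate 1 (-0.59) or 2 (-0.63), first-set DMSO replicate 1 (-0.59) or second-set DMSO replicate 2 (-0.61). The ACTB 5' to 3' ratio was 0.756, 0.727 and 0.769 on these daunorubicin arrays against 0.806 to 0.886 for the first and 0.900 to 0.934 for the second DMSO set of GL2 siRNA cells. It was 0.697, 0.732 and 0.720 with Nutlin in GL2 siRNA cells, and 0.649 and 0.727 in replicates 2 and 3 of p53 siRNA cells with daunorubicin, where the p53 siRNA DMSO arrays had 0.858 to 0.945. Its part in the Nutlin and daunorubicin results was not tested.

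In p53 siRNA cells with daunorubicin the pattern was another: DUSP5 rose and DUSP4 did not. DUSP5 had 9.22, 9.39 and 9.05 with daunorubicin, above the DMSO values of 8.23 to 8.88, a change of 0.78 ± 0.09 (1.72-fold higher, adjusted p = 6.0e-08). In GL2 siRNA cells its daunorubicin arrays, at 8.79, 8.70 and 8.70, did not leave the DMSO range on the upper side (change -0.08 ± 0.09). DUSP4 had 9.97, 9.46 and 9.42 in p53 siRNA cells with daunorubicin, overlapping the DMSO arrays (change -0.05 ± 0.11), and its highest value was the library labelled replicate 1. DUSP5 was the 1 member called higher, where 6.52% of all genes were, and ETV4 the 1 called lower (7.38%), shares that were 8.78% and 5.76% at the deposited scaling. The ETV4 fall of -1.89 ± 0.49 (adjusted p = 0.0047) rested on the library labelled replicate 1: the arrays read 4.35, 8.62 and 9.06 with daunorubicin against 8.81, 9.33 and 9.37 as the lowest, median and highest with DMSO, and without that library the change was -0.39 and not called. Without the same library SPRY2 was called lower (-0.78, adjusted p = 2.1e-04), whereas with it the change was -0.52 ± 0.15.

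Between p53 and GL2 siRNA cells the daunorubicin change of DUSP5 differed by 0.86 ± 0.12 (adjusted p = 3.0e-06) and that of DUSP4 by -0.90 ± 0.16 (adjusted p = 6.7e-05). They were the 1 member called more positive and the 1 called more negative, among 11.6% and 7.18% of all genes (9.15% and 9.48% at the deposited scaling). Without the 3 doubted libraries, of which only the one labelled p53 siRNA replicate 1 is a daunorubicin array, the differences were 0.86 and -1.08. SPRED1 was then called as well (-0.70, adjusted p = 3.0e-04), whereas with them its difference was -0.44 ± 0.17. ETV4 was called only without p53 siRNA daunorubicin replicate 3 (-2.07, adjusted p = 0.0158), a setting that keeps the array at 4.35. The changes under the 2 siRNAs use separate DMSO arrays, but the MLN4924, Nutlin and daunorubicin changes within an siRNA share theirs.

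**Figure D3:**
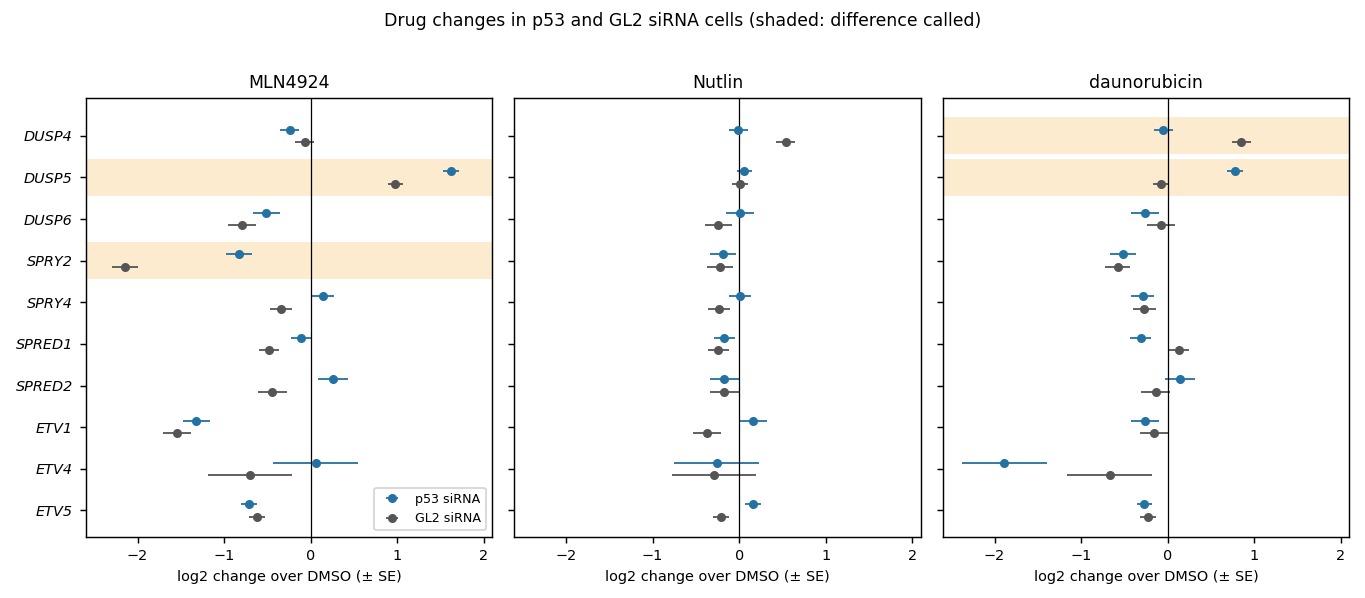
Change of each gene with MLN4924, Nutlin and daunorubicin against DMSO under p53 siRNA (blue, upper) and GL2 siRNA (grey, lower), on the log2 scale, with bars for the standard error of the fit. Shading marks a called difference between the siRNAs: SPRY2 (1.31) and DUSP5 (0.64) with MLN4924, and DUSP4 (-0.90) and DUSP5 (0.86) with daunorubicin.

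Set directly against the other drugs in GL2 siRNA cells, without use of the DMSO arrays, MLN4924 gave 1 member higher and 3 lower than Nutlin. Of all genes, 18.1% and 9.47% were so called. DUSP5 was higher (0.97 ± 0.10, adjusted p = 3.3e-09), and SPRY2 (-1.92 ± 0.18, adjusted p = 4.0e-10), ETV1 (-1.17 ± 0.19, adjusted p = 6.3e-06) and DUSP4 (-0.61 ± 0.13, adjusted p = 3.2e-04) were lower. DUSP4 lost its call without Nutlin replicate 3 (-0.58), and DUSP6 (-0.55 ± 0.19) gained it without Nutlin replicate 2 (-0.62) or the library labelled MLN4924 replicate 3 (-0.81). Against daunorubicin, 1 member was higher and 5 were lower, where 19.3% and 9.8% of all genes were. DUSP5 was again higher (1.06), and SPRY2 (-1.56), ETV1 (-1.38), DUSP4 (-0.92), DUSP6 (-0.71) and SPRED1 (-0.61) were lower. The DUSP6 call was lost without MLN4924 replicate 2 (-0.57), and the SPRED1 call without daunorubicin replicate 1 (-0.51) or MLN4924 replicate 1 (-0.58). At the deposited scaling 8 members were called between MLN4924 and Nutlin, and all genes split into 8.95% higher and 19.6% lower there, and into 8.83% higher and 21.1% lower against daunorubicin. No member was called between Nutlin and daunorubicin, where 2.3% of all genes were and 2 members passed at an unadjusted p below 0.05 (13.6% of all genes). The comparisons with Nutlin and with daunorubicin share the same MLN4924 arrays, among them the doubted library labelled replicate 3. The ACTB 5' to 3' ratio was 0.897, 0.905 and 0.888 on these MLN4924 arrays, above the Nutlin and daunorubicin arrays of GL2 siRNA cells. Its part in these comparisons was not tested.

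The siRNAs themselves, compared under DMSO, touched single genes. In p53 siRNA cells ETV1 had a lowest, median and highest of 7.59, 7.96 and 8.33, against 8.62, 8.79 and 9.10 in GL2 siRNA cells. The ranges did not overlap, and the change of -0.85 ± 0.13 (1.81-fold lower, adjusted p = 2.6e-05) was the 1 fall called, where 2.27% of all genes fell and 1.71% rose (1.93% and 2.2% at the deposited scaling). It was smaller between the first DMSO sets alone (-0.53, adjusted p = 0.172) and in the mean of all ETV1 probe sets (-0.36). SPRY2 was lower in p53 siRNA cells without overlap, at -0.57 ± 0.13 (adjusted p = 0.00236), just under 1.5-fold, and it was called without p53 siRNA second-set replicate 1 (-0.59) or GL2 siRNA second-set replicate 2 (-0.59). DUSP5 (-0.37 ± 0.07), DUSP6 (-0.43 ± 0.13) and SPRY4 (-0.32 ± 0.11) had adjusted p of 4.2e-04, 0.0309 and 0.0459 with changes under 1.5-fold.

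With BRCA1 siRNA under DMSO, DUSP4 and SPRY4 rose, where 4.11% of all genes rose and 4.37% fell. DUSP4 had 10.44, 10.18 and 10.35 in BRCA1 siRNA cells, above the GL2 range of 9.55 to 9.79 (0.64 ± 0.11, 1.56-fold higher, adjusted p = 1.5e-04). SPRY4 had 10.05, 9.54 and 9.68, above the GL2 range of 8.99 to 9.36 (0.65 ± 0.13, 1.57-fold higher, adjusted p = 6.8e-04), and fell below 1.5-fold without BRCA1 siRNA replicate 1 (0.50). These are the same DMSO arrays against which both genes fell with MLN4924 in BRCA1 siRNA cells, where their levels (9.59 to 9.72 and 8.74 to 8.76) were near those of GL2 siRNA cells with MLN4924 (9.56 to 9.67 and 8.62 to 8.87). Without a call, DUSP5 (8.35 to 8.41) lay below and SPRY2 (11.30 to 11.48) above their GL2 DMSO ranges of 8.73 to 8.89 and 10.85 to 11.08. With MLN4924, doubted libraries included, the means of DUSP5 and SPRY2 were 9.77 and 8.89 in BRCA1 and 9.79 and 8.81 in GL2 siRNA cells. The fibroblast marker LUM was also higher with BRCA1 siRNA under DMSO (2.05 ± 0.25, adjusted p = 9.8e-07), and its part was not tested. With CDT1 siRNA no member was called, where 6.3% of all genes were and 2 members passed at an unadjusted p below 0.05 (23.9% of all genes). No member was called between the second and the first DMSO set of p53 or GL2 siRNA cells, where 0.278% and 0.941% of all genes were. At an unadjusted p below 0.05, 3 members passed between the p53 siRNA sets, where 8.9% of all genes did. All 10 had log2 differences below 0 in the second set, as had 49.2% of all genes, ETV1 with the largest (-0.55 ± 0.19). Between the GL2 sets 0 members passed (12.5% of all genes).

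Several of the genes have further probe sets, which gave a check of these values. The 4 other probe sets of ETV1 all pointed down with MLN4924 in GL2 siRNA cells, at -0.60 to -0.92, and all were called. With MLN4924 all 4 also had log2 changes below 0 under the other siRNAs, but the number called was 1 with p53 siRNA, 3 with CDT1 siRNA and 4 with BRCA1 siRNA. None was called with p53 siRNA under DMSO (-0.13 to -0.30). Both other probe sets of DUSP6 were called lower with MLN4924 in CDT1, BRCA1 and GL2 siRNA cells, and at -0.92 and -1.28 in GL2 siRNA cells they showed more of a fall than the brightest. The other ETV4 probe set was called lower in GL2 siRNA cells with MLN4924 (-0.94 ± 0.28, adjusted p = 0.00923). DUSP4 probe sets disagreed. With daunorubicin in GL2 siRNA cells its other probe sets gave 1.17 (called) and 0.54 (adjusted p = 0.00147, under 1.5-fold), and with MLN4924 in p53 siRNA cells they gave -0.73 (called) and 0.45 (adjusted p = 0.00574, under 1.5-fold). Of 4 other ETV5 probe sets the brightest was called lower with MLN4924 under all 4 siRNAs, and it was the only 1 called under each. The number with the sign of the ETV5 probe set used here was 3 with p53, 4 with CDT1, 3 with BRCA1 and 2 with GL2 siRNA. In GL2 siRNA cells 2 dim ones, with mean log2 signals of 4.46 and 3.91, gave 0.62 and 0.08. With MLN4924 in BRCA1 siRNA cells both other probe sets of SPRED1 had the sign of the brightest, and 1 was called. Neither of the 2 other SPRED2 probe sets had the sign of the brightest there, and neither was called. SPRY2, SPRY4 and DUSP5 have no other single-symbol probe set here.

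**Figure D4:**
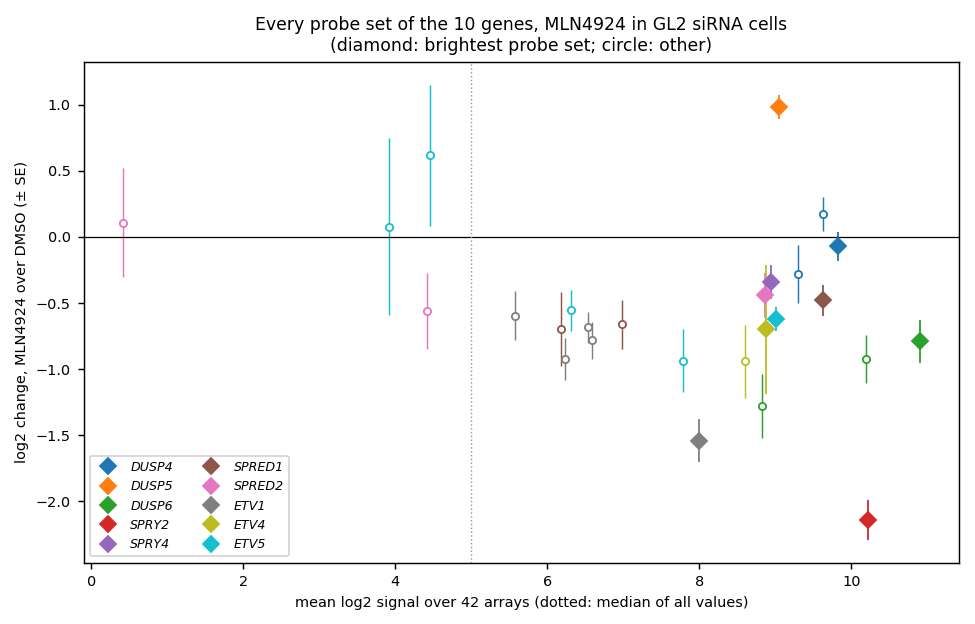
Change with MLN4924 against DMSO in GL2 siRNA cells (vertical axis, log2, with standard error bars) for every probe set of the 10 genes against its mean log2 signal over the 42 arrays; diamonds are the brightest probe sets used in the text and circles the others, and the dotted line is the median of all values. Most points lie below zero. Among those above it are DUSP5 at 0.98, the dim ETV5 probe set at 0.62 and further probe sets of DUSP4, SPRED2 and ETV5.

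Over the 14 group means, DUSP5 ran opposite to the rest: its Pearson r was below 0 with all 9 other members, between -0.90 (ETV5) and -0.08 (SPRED2). Among the 36 other pairs 1 was below 0, and the highest were DUSP6 with ETV1 (0.95), DUSP6 with SPRY2 (0.89) and SPRY2 with ETV1 (0.87). These values describe 14 groups that share siRNAs and drugs, and MLN4924 takes 4 of them. Among the other genes above median signal, SFRP1, a secreted Wnt antagonist, was among the 3 most like each of SPRY2 (0.950), DUSP6 (0.943) and ETV1 (0.935). The most like DUSP6 was FRMD4A (0.970), the most like ETV1 NPAS2 (0.939), the most like ETV5 DHRS3 (0.947) and the most like DUSP5 SAMD4A (0.963). For SPRY4 it was HIPK2 (0.927), for DUSP4 ASAH1 (0.931), for SPRED1 ZNHIT2 (0.907) and for SPRED2 RGS17 (0.882). CENPB was the most like ETV4 (0.960), a value that the array at 4.35 enters.

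Other genes of the pathway were counted by list, to be read against the shares of all genes called with MLN4924: 17.8% higher and 7.6% lower in p53, 5.93% and 4.63% in CDT1, 9.79% and 7.15% in BRCA1, and 10.2% and 7.06% in GL2 siRNA cells. Of 22 genes listed for the cascade itself 16 were analysed here. Of these 16, 3 rose and 0 fell with MLN4924 in GL2 siRNA cells, among them MAP2K1, which encodes the ERK kinase MEK1 (0.69 ± 0.12, adjusted p = 5.1e-05), and HRAS (0.64 ± 0.17, adjusted p = 0.00456). In p53 siRNA cells 3 rose and 1 fell, with MAP2K1 at 1.16 ± 0.12 (adjusted p = 7.4e-09) and NF1, which encodes neurofibromin, at -0.93 ± 0.28 (adjusted p = 0.0086). In BRCA1 siRNA cells 4 rose and 2 fell, and in CDT1 siRNA cells none of the 16 was called. Their median change was 0.31 in p53, 0.29 in CDT1, 0.40 in BRCA1 and 0.26 in GL2 siRNA cells, beside medians of all genes of 0.20, 0.10, 0.16 and 0.08 in the same order.

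Of 12 receptor genes, 3 rose and 2 fell in p53, 1 rose and 2 fell in CDT1, 2 rose and 2 fell in BRCA1, and 2 rose and 1 fell in GL2 siRNA cells with MLN4924. ERBB3, the neuregulin receptor, fell in all 4, with log2 changes of -3.07 in p53, -2.68 in CDT1, -3.35 in BRCA1 and -2.94 in GL2 siRNA cells, which is more than any of the 10 genes. IGF1R, the insulin-like growth factor receptor, rose in p53 (0.98 ± 0.15) and GL2 siRNA cells (1.06 ± 0.15).

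Other transcripts often used as ERK outputs moved in both directions. Of 11 such genes, 6 rose and 3 fell in p53, 5 rose and 4 fell in CDT1, 3 rose and 3 fell in BRCA1, and 4 rose and 2 fell in GL2 siRNA cells with MLN4924. MYC, the growth-promoting transcription factor, rose by 3.42 ± 0.14 in p53 and 1.28 ± 0.14 in GL2 siRNA cells, with a difference of 2.14 ± 0.19 (adjusted p = 8.3e-09). MAFF, a small MAF transcription factor, rose by 2.71 ± 0.13 in p53 and 1.78 ± 0.13 in GL2 siRNA cells. With daunorubicin in p53 siRNA cells 5 of the 11 rose and 1 fell, against 6.52% and 7.38% of all genes, with EGR1, an immediate early gene, rising by 2.40 ± 0.21 (adjusted p = 8.7e-10). Under p53 siRNA with DMSO 5 of them fell and 0 rose, against 2.27% and 1.71% of all genes, and CCND1, which encodes cyclin D1, fell by 1.09 on the log2 scale. Of 16 further genes of the same families, 5 rose and 1 fell in p53, 2 rose and 0 fell in CDT1, 5 rose and 3 fell in BRCA1, and 3 rose and 1 fell in GL2 siRNA cells with MLN4924.

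Markers of cell identity moved beside these results. SOX10, a regulator of the melanocyte lineage, and S100B were the 2 of 6 measured lineage genes called with MLN4924 under each siRNA, and both fell. SOX10 had log2 changes of -3.02 in p53, -2.39 in CDT1, -2.01 in BRCA1 and -2.47 in GL2 siRNA cells. S100B had -3.57 in p53, -2.58 in CDT1, -3.12 in BRCA1 and -2.67 in GL2 siRNA cells. Of 4 epithelial, 3 fibroblast and 2 leukocyte markers, at most 1 of each list was called with MLN4924 under any siRNA, LUM, a fibroblast marker, falling in BRCA1 siRNA cells (-1.61 ± 0.29, adjusted p = 7.4e-05). Epithelial markers were low, with CDH1 at -0.49 to 4.28 and KRT19 at -0.32 to 2.98 over the arrays, and EPCAM and KRT5 somewhat higher, with medians of 4.22 and 5.00. Of the leukocyte markers, PTPRC had -0.11 to 4.20 and CD3E 2.96 to 5.52. The fibroblast markers were not low: LUM lay at the 68.3rd percentile of genes and reached 9.48, COL1A1 6.20 to 7.73 and DCN 5.82 to 6.66. The part of the lineage and fibroblast genes in the changes of the 10 genes was not tested.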

How the data were processed

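RNA of 42 A375 samples was measured on an Affymetrix whole-genome array of 54675 probe sets. The authors deposited signal intensity on a linear scale for each sample, and the submitters' processing notes name Affymetrix Expression Console. Its version is not given in the sources used here. In the deposited files every array has the same 2% trimmed mean, 150.02, and values reach 11983.8. From these, 147 zeros were raised to 0.1, values were taken to log2, and 41091 probe sets with a single gene symbol were kept (1801 have several symbols, 11721 have none and 62 are controls). Symbols came from GEO's platform annotation. Each of 19775 genes was read from its brightest probe set. Each array was then shifted so that its median gene (5.63 to 6.35 before centring) lay at the mean of the array medians.

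Groups were compared with limma 3.58.1 (R 4.3.3) in 1 fit of all 14 groups, with Benjamini-Hochberg adjustment over all genes. All 10 members are named, as are the siRNA targets and CDKN1A. From each pathway list up to 4 called genes with the largest moderated statistic in a comparison could be named, and as genes like a member the 3 with the highest Pearson r over group means among 9888 genes above median signal. The members and lists were chosen with earlier results of these data known. Alternatives were the deposited scaling, quantile normalization, either DMSO set alone, the mean of all probe sets, a pseudocount of 16, dim genes left out, a fit of only the groups compared, trended robust variances, no minimum fold, the replicate number as a block, the 3 doubted libraries left out, each array left out, and each other probe set. Precision is limited by the number of arrays. The fit was tested on simulated data with independent normal noise and changes added only to GL2 siRNA cells with Nutlin. Outlying or exchanged libraries were not simulated. Promoter sequences are from RefSeq.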

Additional observations from a re-analysis of the deposited data

Results flagged for a closer look

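Changes that differed between p53 and GL2 siRNA cells by a test of the difference itself (limma, adjusted over all genes) were found for 3 genes. With MLN4924, the change of SPRY2 was 1.31 ± 0.22 more positive in p53 siRNA cells (-0.83 in p53 and -2.14 in GL2 siRNA cells), with 3 of 3 MLN4924 arrays below every DMSO array under both siRNAs. The change of DUSP5 was 0.64 ± 0.12 more positive (1.62 in p53 and 0.98 in GL2 siRNA cells), again with 3 of 3 arrays on the same side under both, but it was called in 9 of 13 settings and was 0.37 at the lowest. With daunorubicin, DUSP5 differed by 0.86 ± 0.12 (0.78 in p53 and -0.08 in GL2 siRNA cells) and DUSP4 by -0.90 ± 0.16 (-0.05 in p53 and 0.85 in GL2 siRNA cells). The DUSP4 difference was -1.30 in the dimmer of its other probe sets (mean log2 signal 9.30), where it was called, and -0.27 in the brighter (9.63), where it was not.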

How the results depend on the processing

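The counts of called members for MLN4924 against DMSO stayed within 1.5 times under every alternative for all 4 siRNAs. Other counts moved. At the deposited scaling there was 1 for Nutlin in GL2 siRNA cells (0 in the report), 1 for the p53-minus-GL2 difference with MLN4924 (2), 1 for its BRCA1-minus-GL2 counterpart (0), and 8 for MLN4924 against Nutlin (4). Quantile normalization gave 1, 1, 2 and 7 for the same comparisons, and 1 for the p53-minus-GL2 difference with Nutlin (0). Against the first DMSO set alone the counts were 0 for p53 siRNA under DMSO (1), 1 for the p53-minus-GL2 difference with MLN4924 and 1 for that with Nutlin. Against the second set they were 2 for daunorubicin in GL2 siRNA cells (1), 3 for p53 siRNA under DMSO and 1 for the Nutlin difference. The mean of all probe sets gave 0 for p53 siRNA and 1 for BRCA1 siRNA under DMSO (2). The pseudocount gave 1 for each of the p53-minus-GL2 and BRCA1-minus-GL2 differences with MLN4924, and leaving out dim genes gave 1 for the BRCA1 difference. A fit of only the groups compared gave 2 for daunorubicin in GL2 and 1 in p53 siRNA cells (2), and 4 for the p53-minus-GL2 difference with MLN4924. With no minimum fold there was 1 for Nutlin in GL2 siRNA cells, 3 for daunorubicin in GL2 and 4 in p53 siRNA cells, 5 for p53 siRNA under DMSO and 2 for the Nutlin difference. Without the 3 doubted libraries there were 2 for daunorubicin in GL2 siRNA cells. The cause was not tested.

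With each array left out in turn, counts for MLN4924 ran from 4 to 5 in p53, 4 to 5 in CDT1, 8 to 8 in BRCA1 and 5 to 5 in GL2 siRNA cells. They ran from 0 to 0 in p53 and 0 to 1 in GL2 siRNA cells with Nutlin, and from 2 to 2 and 1 to 2 with daunorubicin. Under DMSO they ran from 1 to 2 for p53, 0 to 0 for CDT1 and 1 to 2 for BRCA1 siRNA. For the differences between p53 and GL2 siRNA they ran from 2 to 3 with MLN4924, 0 to 1 with Nutlin and 2 to 3 with daunorubicin, and from 3 to 5 and 5 to 6 for MLN4924 against Nutlin and daunorubicin. All other counts stayed at 0.

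An ETV5 probe set with a mean log2 signal of 4.46, below the median of all values (5.00), turned the sign of ETV5 with MLN4924 to 0.27 in p53, 0.35 in BRCA1 and 0.62 in GL2 siRNA cells, to 1.81 against Nutlin and to 2.04 against daunorubicin. Another, at 3.91, gave 0.08 for MLN4924 in GL2 siRNA cells.

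The replicate numbers did not pair the samples: over 273 pairs of same-numbered arrays the correlation of deviations ran from -0.206 to 0.122, and 10 of 42 arrays were closest to their own number. With the replicate block all 210 single-gene results kept their call, and MLN4924 gave 4, 5, 8 and 5 called members in p53, CDT1, BRCA1 and GL2 siRNA cells.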
